A study of Homo sapiens with 2 samples.

Results

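Leukotrienes and prostaglandins are signalling lipids made from arachidonic acid, and the transcripts of 10 genes that make or break them down were followed in a renal carcinoma line with and without SETD2. The genes were selected from a list of eicosanoid enzymes with earlier results of these libraries in view, so their own ratios are given as a description and support no test. They are PLA2G4A, ALOX5, ALOX5AP, LTA4H, PTGS1, PTGS2, PTGES, PTGES2, PTGES3 and HPGD, 10 of the 23375 gene rows used. All 10 had a row and reached the minimum of 10 reads over both libraries.

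The wild-type library came from 786-O, an established clear cell renal carcinoma line that lacks functional VHL. The SETD2 knockout library came from a derivative of this line in which SETD2 was disrupted by a zinc finger nuclease, an engineered enzyme that breaks DNA at its target sequence. Both were grown in RPMI1640 with 10% serum and received medium alone. Both therefore share the VHL-deficient background. SETD2 encodes the enzyme that places trimethylation on H3K36. There was 1 library per line, and the labels do not say whether the knockout line was 1 clone, so every difference below compares 2 libraries and has no replicate check.

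In outline of the pathway, phospholipase A2 releases arachidonic acid from membrane phospholipids. ALOX5, with its membrane partner ALOX5AP, turns it into leukotriene A4, which LTA4H converts to leukotriene B4, an attractant of neutrophils. The cyclooxygenases PTGS1 and PTGS2 instead turn it into prostaglandin H2, from which the prostaglandin E synthases make prostaglandin E2, and HPGD begins the breakdown of that product. In the kidney, prostaglandin E2 is known for its action on blood flow and on the handling of salt and water, while ALOX5 is known chiefly as an enzyme of white blood cells.

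Depth was 62304084 fragments in the wild-type and 50670012 in the knockout table, where a fragment is 2 deposited reads. Levels are given as fragments, as CPM (fragments relative to the library size after TMM scaling, a trimmed mean of log ratios) or as the authors' RPKM, which also divides by gene length and is the scale used to compare genes. At the wild-type depth 3 fragments are 0.0494 CPM, and at the knockout depth 0.0577 CPM. Intervals are exact 95% intervals of the ratio of knockout to wild type and cover counting error only. SETD2, the targeted gene, had 4908 and 1404 fragments, a ratio of 0.334 (0.314 to 0.354).

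The comparison showed opposite differences within the leukotriene branch and a lower level of the inducible prostaglandin E synthase. ALOX5 was 38.8-fold higher in the knockout library, whereas its partner ALOX5AP was lower, with a ratio of 0.250. PTGES was 10.4-fold lower and HPGD 2.96-fold lower. A gene was called when its whole interval lay beyond 2-fold, and by this rule 1 of the 10 genes was higher and 3 were lower. With a 99% interval HPGD was no longer called. Of 16894 genes tested, 5.75% were called higher and 3.37% lower, 9.12% in all. Because the genes were chosen on this same contrast, nothing is read from their share. The median log2 ratio was -0.52 over the 10 genes and 0.02 over all genes tested.

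The start regions of the 4 genes with the lowest ratios are shown, the 3 called lower and PTGS2, so that the sequence around each start site can be compared. RefSeq held a promoter window (250 bases before to 50 after the start, build GRCh38.p14) for 9 of the 10 genes, all but ALOX5. Windows are printed 5′ to 3′ in the direction of transcription, and capitals mark matches on either strand to the motifs named below.
ALOX5AP, chr13:30713235-30713534, plus strand: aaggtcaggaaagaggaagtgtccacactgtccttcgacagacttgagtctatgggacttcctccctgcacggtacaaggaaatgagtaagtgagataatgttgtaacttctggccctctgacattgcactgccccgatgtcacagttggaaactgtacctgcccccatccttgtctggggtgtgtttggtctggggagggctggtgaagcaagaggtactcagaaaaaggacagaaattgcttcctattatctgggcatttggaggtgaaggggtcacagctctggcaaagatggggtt
PTGES, chr9:129752993-129753292, minus strand: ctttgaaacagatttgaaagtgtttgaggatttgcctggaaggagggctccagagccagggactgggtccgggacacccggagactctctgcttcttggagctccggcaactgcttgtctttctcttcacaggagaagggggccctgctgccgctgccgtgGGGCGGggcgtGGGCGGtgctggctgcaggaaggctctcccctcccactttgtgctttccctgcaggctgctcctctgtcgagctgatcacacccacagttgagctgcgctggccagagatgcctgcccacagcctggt
HPGD, chr4:174522439-174522738, minus strand, the first of 2 windows listed: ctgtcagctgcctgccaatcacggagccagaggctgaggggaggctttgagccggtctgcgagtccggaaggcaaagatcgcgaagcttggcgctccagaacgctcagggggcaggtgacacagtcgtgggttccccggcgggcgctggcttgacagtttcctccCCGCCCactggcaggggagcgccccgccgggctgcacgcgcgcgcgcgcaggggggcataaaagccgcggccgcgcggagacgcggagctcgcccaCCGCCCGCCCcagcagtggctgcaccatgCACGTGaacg
PTGS2, chr1:186680374-186680673, minus strand: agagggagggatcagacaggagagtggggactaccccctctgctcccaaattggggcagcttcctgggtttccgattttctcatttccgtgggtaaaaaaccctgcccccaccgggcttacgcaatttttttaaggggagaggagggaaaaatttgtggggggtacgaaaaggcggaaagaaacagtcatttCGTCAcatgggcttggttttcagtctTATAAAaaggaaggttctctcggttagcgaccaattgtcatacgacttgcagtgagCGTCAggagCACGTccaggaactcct

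These windows differed in base composition and in the motifs they hold. Their GC content was 50.3% for ALOX5AP, 61.7% for PTGES, 71% for HPGD and 50.7% for PTGS2, against a median of 58.7% over 34943 windows of this length. CpG dinucleotides numbered 3, 10, 34 and 12 in the same order, with a median of 14 over all windows. The GC box GGGCGG was found 2 times for PTGES and 3 times for HPGD, and 44.9% of all windows held it. For HPGD 2 of the matches overlap, and these begin 11 and 15 bases after the start. The TATA box TATAAA was found 32 bases before the start of PTGS2 and is held by 11.6% of windows. The core TGACG of the cAMP response element occurred 2 times for PTGS2, beginning 58 bases before and 24 bases after the start (24.5% of windows). For the core of the hypoxia response element only the form ACGTG was searched. It occurred once for PTGS2 after the start (21.4% of windows). The E-box CACGTG of HPGD (7.23% of windows), which begins 40 bases after the start, holds this core on both strands. The form GCGTG was not searched and stands unmarked in the windows of PTGES and HPGD. An AP-1 site (TGANTCA, 7.72% of windows), 1 consensus form of the kappaB site (9.07%) and the interferon response element (3.57%) were also searched on both strands and had no match in the 4 windows. The kappaB form was GGGRNHYYCC, where R is A or G, N any base, H not G and Y is C or T. Other kappaB forms were not searched, and the PTGS2 window holds GGGGACTACC, which is 1 base away from this form. The window of PTGES3, which is not shown, held 1 kappaB match. The second window of HPGD, also not shown, differed from the first. It had 44.7% GC, 7 CpG dinucleotides, 1 TGACG core and no GC box or E-box. A match is a string of letters and was not tested as a binding site.

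**Figure D1:**
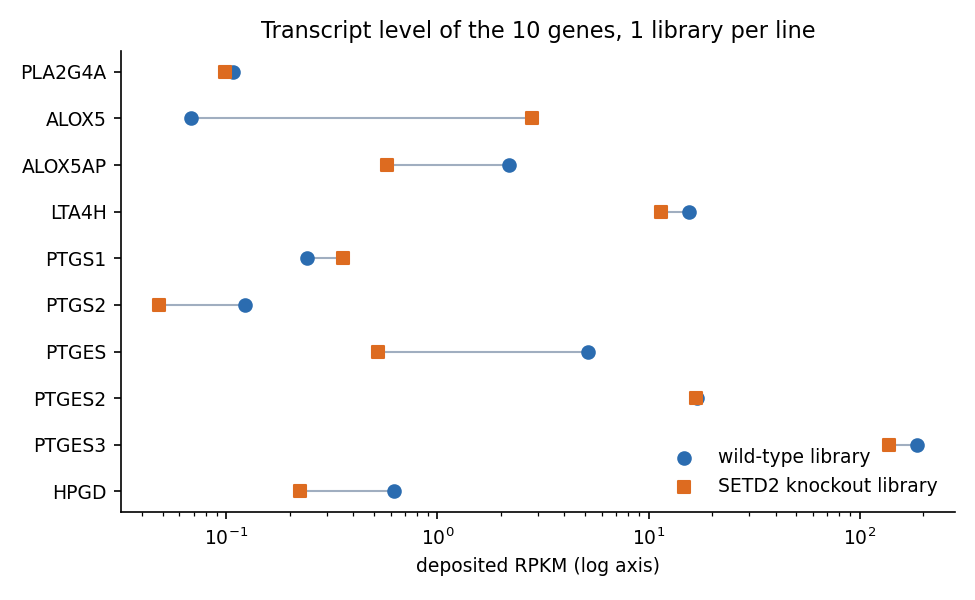
Deposited RPKM of the 10 genes on a log axis, with 1 circle for the wild-type and 1 square for the SETD2 knockout library and a line joining them. ALOX5 moves from 0.0683 to 2.80 RPKM and PTGES from 5.17 to 0.523 RPKM, while PTGES2 has 16.9 and 16.7 RPKM.

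Arachidonate release came first. PLA2G4A (hg19 chromosome 1, 186798032 to 186958113), the cytosolic phospholipase A2, had 27 wild-type and 20 knockout fragments, or 0.108 and 0.0982 RPKM. The libraries were not distinguishable at this depth, with a ratio of 0.864 (0.459 to 1.60). It lay at the 40.0th and 37.4th percentile of all gene rows by RPKM, so this phospholipase was scarce in both libraries.

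In the leukotriene branch, ALOX5 (chromosome 10, 45869624 to 45941567), the 5-lipoxygenase, had 15 wild-type and 499 knockout fragments. These correspond to 0.247 and 9.59 CPM, or 0.0683 and 2.80 RPKM. The ratio was 38.8 (23.3 to 69.9), the 69th highest log2 ratio among the genes tested. By RPKM the gene moved from the 37.6th to the 61.1st percentile of all rows. ALOX5AP (chromosome 13, 31287615 to 31338565), the membrane protein that presents arachidonic acid to ALOX5, had 238 wild-type and 51 knockout fragments, or 2.19 and 0.577 RPKM. Its ratio was 0.250 (0.181 to 0.339). LTA4H (chromosome 12, 96394531 to 96437298), the hydrolase that makes leukotriene B4, had 3250 and 1940 fragments, or 15.5 and 11.4 RPKM. Its ratio of 0.696 (0.658 to 0.737) differed from 1 beyond counting error but was not called.

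The order of the leukotriene genes changed between the libraries. Per length, ALOX5AP stood 32.0 times above ALOX5 in the wild-type library (interval 19.0 to 58.1). In the knockout library ALOX5 stood 4.85 times above ALOX5AP (3.63 to 6.61). These ratios are taken within a library and do not depend on how the libraries were scaled. ALOX5 made up 0.385% of the summed RPKM of ALOX5, ALOX5AP and LTA4H in the wild-type library and 19.0% in the knockout library. LTA4H remained the most abundant of the 3, with 87.3% and 77.1%.

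Both cyclooxygenases were scarce. PTGS1 (chromosome 9, 125133229 to 125157981), the constitutive form, had 105 wild-type and 127 knockout fragments, or 0.240 and 0.358 RPKM, with a ratio of 1.41 (1.08 to 1.84). PTGS2 (chromosome 1, 186640944 to 186649559), the inducible form, had 47 and 15 fragments, or 0.122 and 0.0480 RPKM. Its ratio was 0.372 (0.193 to 0.678), so that it was lower beyond counting error and yet not called, because the interval reached past 0.5-fold. Per length, PTGS1 exceeded PTGS2 1.97-fold (1.38 to 2.84) in the wild-type and 7.47-fold (4.36 to 13.7) in the knockout library. The intervals of these within-library ratios did not overlap. They cover counting error only, and with 1 library per line this is a description and not a test.

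The 3 prostaglandin E synthases differed from each other. PTGES (chromosome 9, 132500615 to 132515344), the inducible microsomal enzyme that is often paired with PTGS2, had 792 wild-type and 65 knockout fragments, or 13.1 and 1.25 CPM and 5.17 and 0.523 RPKM. Its ratio of 0.0957 (0.0732 to 0.123) was the 166th lowest log2 ratio of the genes tested. PTGES2 (chromosome 9, 130882972 to 130890741), a membrane-associated synthase, had 3512 and 2821 fragments and a ratio of 0.937 (0.891 to 0.985). PTGES3 (chromosome 12, 57057125 to 57082078), which is also the HSP90 co-chaperone p23, had 30677 and 18442 fragments and a ratio of 0.701 (0.688 to 0.714). It was the most abundant of the 10 genes, at 187 and 138 RPKM, and made up 82.0% and 80.9% of their summed RPKM.

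The level of PTGES relative to PTGES2 was also lower in the knockout library. Per length PTGES was at 0.306 of the level of PTGES2 (0.283 to 0.331) in the wild-type library and at 0.0313 (0.0241 to 0.0400) in the knockout library. HPGD (chromosome 4, 175411328 to 175444049), the dehydrogenase that starts prostaglandin breakdown, had 162 wild-type and 47 knockout fragments, or 0.624 and 0.223 RPKM, and a ratio of 0.338 (0.239 to 0.471). The synthase PTGES stood 8.28 times above HPGD per length in the wild-type library (6.99 to 9.87) and 2.34 times above it in the knockout library (1.59 to 3.49). Both were lower, PTGES by the larger fold.

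**Figure D2:**
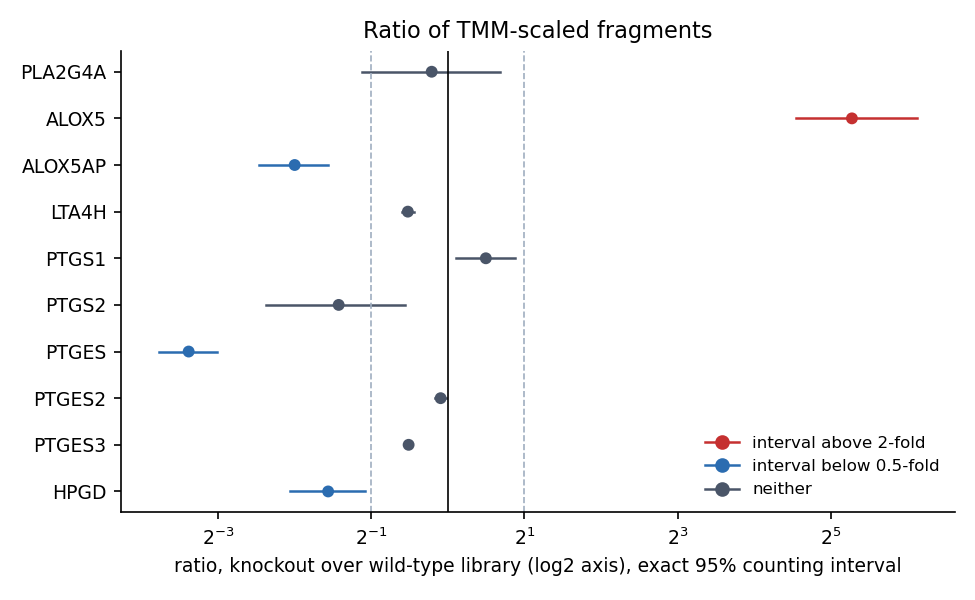
Ratio of TMM-scaled fragments, knockout over wild-type library, on a log2 axis, with points for the 10 genes, bars for exact 95% counting intervals and dashed lines at 0.5-fold and 2-fold. ALOX5 lies beyond 2-fold, PTGES, ALOX5AP and HPGD lie below 0.5-fold, and the bar of PTGS2 (0.193 to 0.678) crosses the lower line.

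Ratios were also read against abundance. LTA4H, PTGES2 and PTGES3, the 3 genes above 10 RPKM in either library, had ratios from 0.696 to 0.937, and none was called. The other 7 had ratios from 0.0957 to 38.8, and 4 of them were called. Among all genes tested the same division gave 4.49% called above 10 RPKM and 11.2% at or below it. The plot of log2 ratio against mean level places the 10 genes in that background. Because the 10 genes were chosen on this same contrast, nothing is read from their share on either side of the division.

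**Figure D3:**
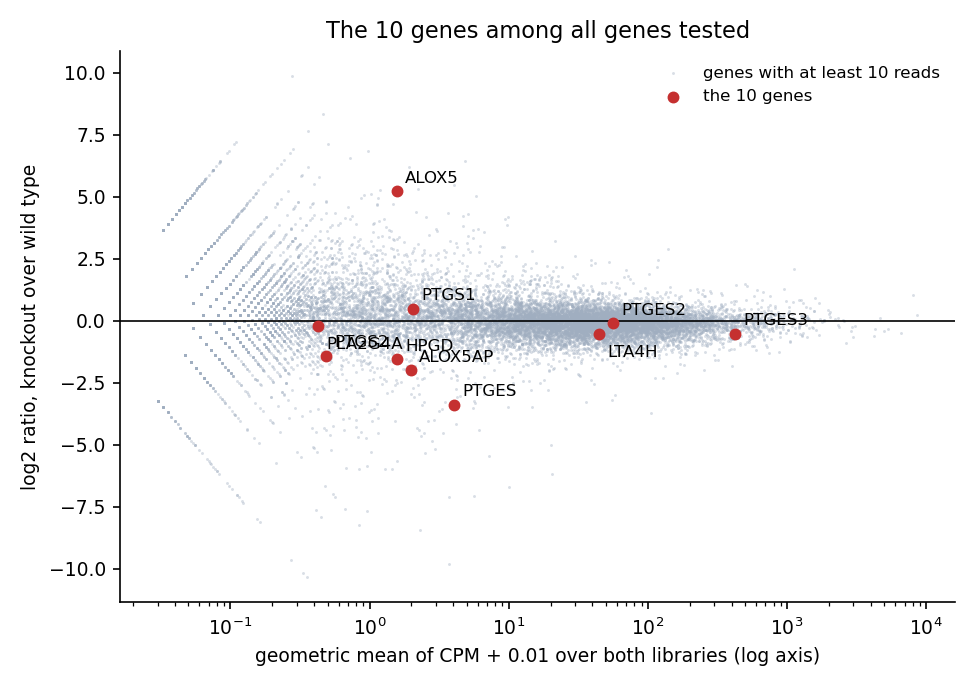
Log2 ratio of knockout over wild type (0.5 fragments added) against the geometric mean CPM, with 0.01 added, on a log axis for 16894 genes in grey and the 10 genes in red. ALOX5 at 5.23 and PTGES at -3.37 lie outside most of the cloud at their level, and PTGES3 at -0.51 lies within it.

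The neighbours of each gene were examined in the order of the tables' hg19 positions. ALOX5 had the highest log2 ratio among itself and the 50 nearest tested genes, whose median was 0.12. The tested gene just before it, the olfactory receptor gene OR13A1, lies 58568 bases away and had 0 wild-type and 11 knockout fragments. Set against a floor of 3 wild-type fragments it was 4.28-fold higher, and the exact interval starts at 2.93. The gene just after it, MARCH8, a ubiquitin ligase, had 771 and 612 fragments and a ratio of 0.926 (0.831 to 1.03). RASSF4, the fifth tested gene before ALOX5, was called lower with a ratio of 0.342 (0.322 to 0.363).

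PTGES and ALOX5AP each had the lowest log2 ratio among itself and its 50 nearest tested genes. The medians of those neighbours were 0.27 and 0.23. PTGES lies between ASB6, with a ratio of 1.21, and TOR1B, with a ratio of 1.29. ALOX5AP lies between USPL1, with a ratio of 1.22, and the chaperone gene HSPH1, with a ratio of 1.18. HPGD ranked 50th of 51, with a neighbour median of -0.08. It lies between CEP44, with a ratio of 0.670, and GPM6A, which had 7 wild-type and 1 knockout fragments.

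For LTA4H and PTGES3 the picture was different. Both lie on chromosome 12, where the 50 nearest tested genes had medians of -0.39 and -0.40. Relative to those medians the log2 ratios of LTA4H and PTGES3 were -0.13 and -0.11, against -0.52 and -0.51 over all genes. PTGES3 lies between the small nucleolar RNA SNORD59A, with 6 and 3 fragments, and NACA, with a ratio of 0.804, and LTA4H between HAL, with 2 and 14 fragments, and ELK3, with a ratio of 0.622.

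PTGS2 and PLA2G4A are next to each other on chromosome 1, 148473 bases apart. Their 50 nearest tested genes had medians of -0.33 and -0.36. PTGS2 ranked 49th of 51, with OCLM (ratio 1.06) on its other side. Relative to its neighbours PLA2G4A had a log2 ratio of 0.16, against -0.20 over all genes. RGS18, a regulator of G protein signalling on its other side, had 0 and 12 fragments. Set against a floor of 3 wild-type fragments it was 4.67-fold higher (interval from 3.24). On chromosome 9, PTGS1 lies between MRRF, with a ratio of 1.26, and OR1L8, with 2 and 5 fragments, and PTGES2 lies between LOC100289019 and LOC389791, with ratios of 1.60 and 1.58. No row of the tables overlapped any of the 10 genes.

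**Figure D4:**
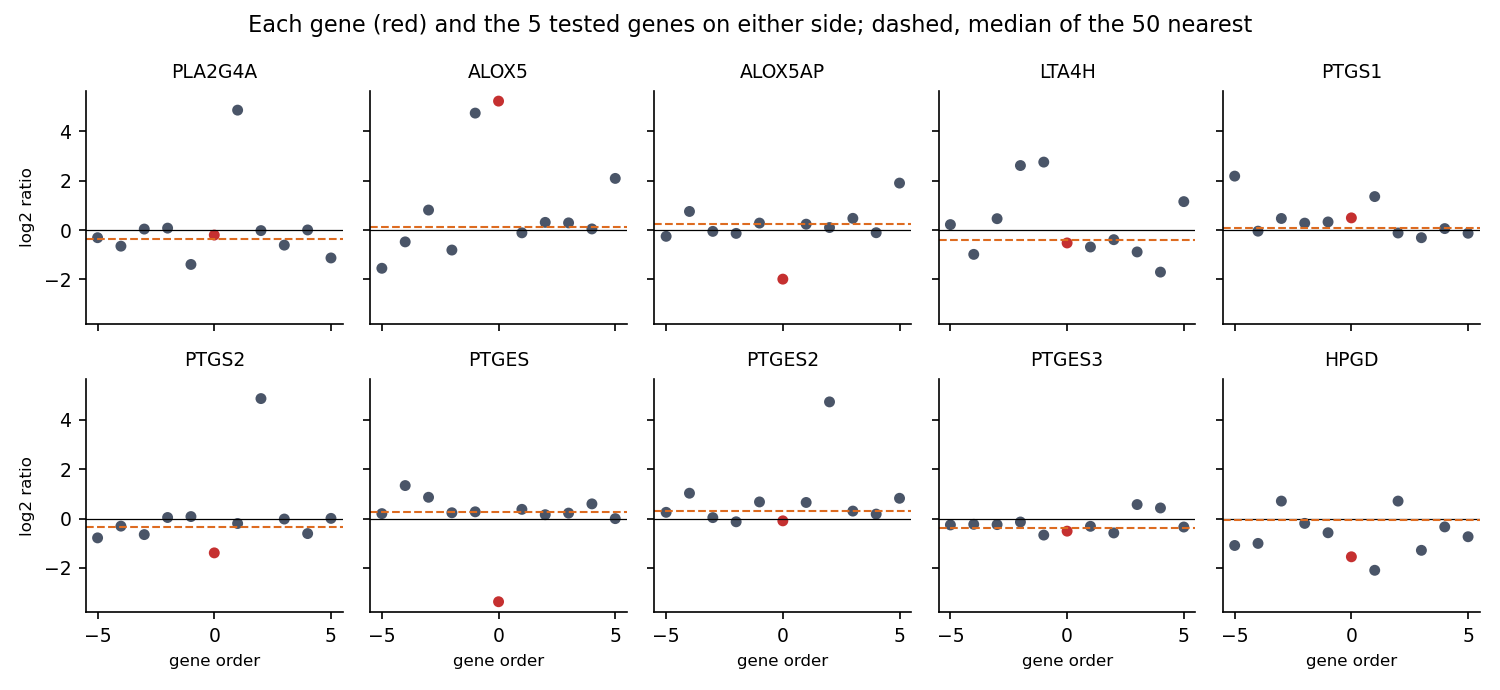
Log2 ratio of knockout over wild type (0.5 fragments added) by gene order for each of the 10 genes in red and the 5 tested genes on either side in grey, with a dashed line at the median of the 50 nearest. ALOX5 stands above and PTGES, ALOX5AP and PTGS2 stand below their neighbours, whereas LTA4H and PTGES3 lie near their dashed lines (-0.39 and -0.40).

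The rest of the pathway was taken from a list of 70 other eicosanoid genes ordered by role, all of which had a row. Of these, 55 reached the minimum of 10 reads, 8 were called higher and 6 lower, and 41 were not called. Their median log2 ratio was -0.03. Over all genes tested 5.75% were called higher and 3.37% lower. The list of 70 too was drawn up with earlier results of these libraries known. Nothing is therefore read from its shares or from those of its roles.

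Upstream of the 10 genes, all 7 genes of arachidonate supply and re-esterification had log2 ratios below 0, with a median of -0.64. Of all 16894 genes tested, 8228 were below 0. Among the 7, 1 gene was called lower, where 3.37% of all genes tested were. That gene was FADS2, a desaturase of polyunsaturated fatty acid synthesis and the most abundant of the group at 112 RPKM in the wild-type library, with a ratio of 0.477 (0.467 to 0.487). It was no longer called under total count or upper quartile scaling. Of 7 other phospholipases A2 tested, PLA2G10, a secreted enzyme, was the 1 called higher, from 2 to 16 fragments (interval of the ratio 2.19 to 83.7), and was no longer called with a 99% interval. The most abundant, PLA2G12A, had 1483 and 1540 fragments and a ratio of 1.21 (1.13 to 1.30).

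Among other lipoxygenases and the cysteinyl leukotriene enzymes, no tested gene was called higher. ALOX12, the platelet-type lipoxygenase, had 132 and 197 fragments and a ratio of 1.74 (1.39 to 2.19), and 0 of 3 tested lipoxygenases were called. Reads of ALOX12 cannot be told apart from those of the overlapping LOC100506713 where strand is not known. LTC4S, the synthase of leukotriene C4, had 12 and 10 fragments. Among 5 tested genes of cysteinyl leukotriene synthesis, GGT1, a gamma-glutamyltransferase, was called lower with a ratio of 0.451 (0.432 to 0.470). GGT1 overlaps FAM211B and has close gene copies, so its count is uncertain. MGST1, a microsomal glutathione transferase and the most abundant of them, had a ratio of 0.781 (0.752 to 0.811).

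Of 3 tested leukotriene receptors, 1 was called. LTB4R, the high-affinity receptor of leukotriene B4, was called higher, with 151 wild-type and 331 knockout fragments and a ratio of 2.56 (2.10 to 3.12), and was no longer called with a 99% interval. LTB4R2, its low-affinity relative, had 74 and 110 fragments and a ratio of 1.73 (1.28 to 2.36), and the rows of these receptors overlap by 555 bases. LTB4R2 also overlaps CIDEB by 1220 bases, a gene with 1273 and 1169 fragments, so the count of LTB4R2 is uncertain. CYSLTR1, a cysteinyl leukotriene receptor, had 2 and 11 fragments and a ratio of 6.41 (1.40 to 59.6). LTB4R2 had the higher RPKM of these receptors in the wild-type library, 0.553 against 0.381. Of 6 tested prostanoid receptors, 3 were called lower and 0 higher, against 3.37% and 5.75% of all genes tested. PTGDR2, a prostaglandin D2 receptor, had 1 and 8 fragments and a ratio of 9.33 (1.25 to 414), and was called higher where counts were not divided by 2. PTGER4, a prostaglandin E2 receptor and the most abundant of them, had 1104 and 334 fragments and a ratio of 0.353 (0.311 to 0.399). PTGFR, the prostaglandin F2-alpha receptor, had 1212 and 159 fragments and a ratio of 0.153 (0.129 to 0.181). TBXA2R, the thromboxane receptor, had 44 and 5 fragments and a ratio of 0.133 (0.0410 to 0.333). PTGER2, another prostaglandin E2 receptor, had 259 and 205 fragments and a ratio of 0.923 (0.765 to 1.11).

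Other prostanoid synthases moved in both directions. AKR1C3, which makes prostaglandin F2-alpha and also acts on steroids, was 4.70-fold higher (4.18 to 5.30), from 352 to 1419 fragments. PTGIS, the prostacyclin synthase, was called lower, from 177 to 26 fragments, with a ratio of 0.171 (0.109 to 0.260). AKR1B1, an aldose reductase with prostaglandin F synthase activity, was the most abundant at 873 and 593 RPKM and had a ratio of 0.643 (0.637 to 0.650). Of the 3 transport genes none was called. SLCO2A1 had 238 and 85 fragments and a ratio of 0.417 (0.321 to 0.536), and was called lower where counts were not divided by 2. ABCC4 had a ratio of 0.848 (0.820 to 0.877). ABCC1, an exporter of leukotriene C4 and the most abundant of them in the knockout library, had a ratio of 1.07 (1.04 to 1.10).

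Of 8 tested genes of eicosanoid breakdown 3 were called higher, and of 5 of arachidonate epoxidation and hydrolysis 2 were. Over all genes tested the share called higher was 5.75%. CYP4F3, an omega-hydroxylase of leukotriene B4, had 4 wild-type and 94 knockout fragments, a ratio of 27.4 (10.4 to 103). CYP4F12 had 2 and 39 fragments (5.89 to 194) and CYP4F11 had 234 and 667, a ratio of 3.32 (2.86 to 3.88). CYP2J2, an arachidonate epoxygenase, had 10 and 61 fragments and a ratio of 7.11 (3.62 to 15.6). EPHX2, the soluble hydrolase of the resulting epoxides, had 34 and 117 fragments and a ratio of 4.01 (2.72 to 6.07). The CYP4F and AKR1C genes have close copies that can share reads, so their single counts are uncertain. The most abundant genes of these roles, PTGR1, a prostaglandin and leukotriene reductase, and EPHX1, the microsomal epoxide hydrolase, had ratios of 1.57 and 1.71 and were not called. ANXA1, a protein known to restrain phospholipase A2, had 32411 and 55520 fragments and a ratio of 1.998 (1.97 to 2.03), so that its interval spanned the 2-fold line, and it was called higher under total count and upper quartile scaling. COTL1, a protein that binds ALOX5, had a ratio of 1.13 (1.11 to 1.15).

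**Figure D5:**
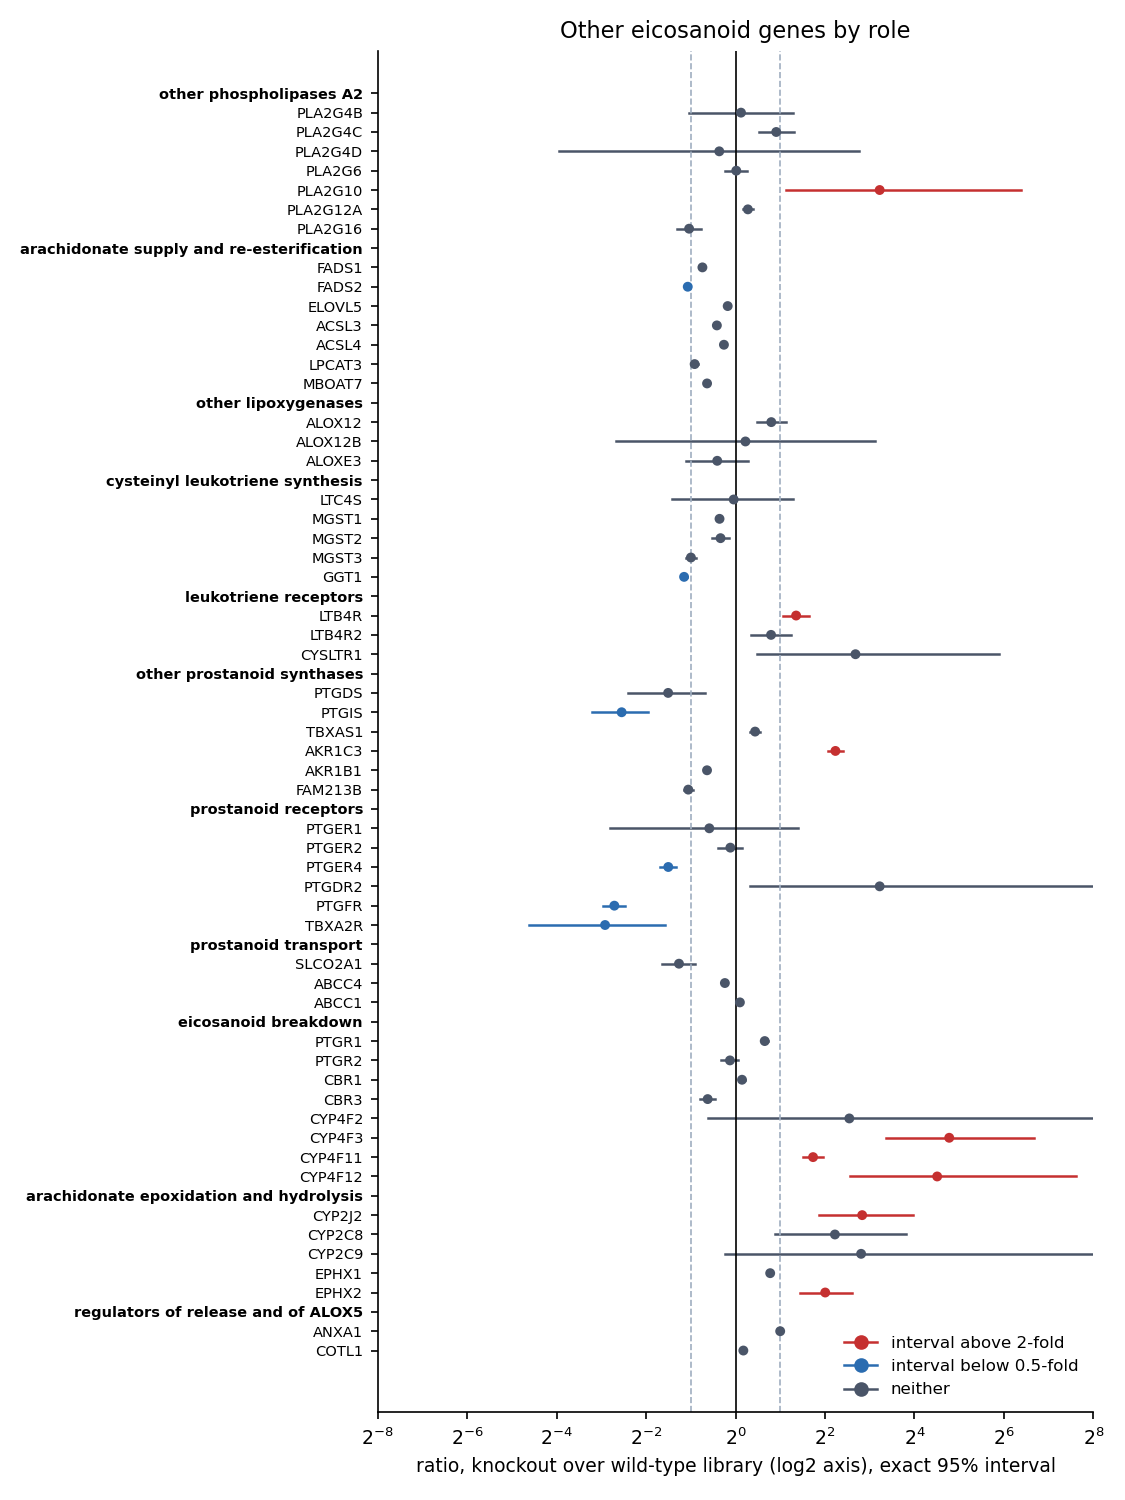
Ratio of knockout over wild-type library on a log2 axis for the 55 other eicosanoid genes with at least 10 reads, grouped by role, with bars for exact 95% counting intervals that end at the axis limits. Red marks the 8 genes called higher, among them LTB4R and 3 CYP4F genes, and blue the 6 called lower, among them 3 prostanoid receptors.

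Because ALOX5 is best known in white blood cells, 23 leukocyte markers were read beside it. Their sum was 49.3 CPM in the wild-type library and 56.4 in the knockout library, of which CD68, a lysosomal protein also made outside white blood cells, took 38.6 and 39.6. Of 11 tested markers, 9 had log2 ratios above 0, with a median of 0.87 against 0.02 over all genes tested. ITGAM, a myeloid integrin chain, had 45 and 61 fragments, and LAPTM5, a lysosomal protein of blood cells, had 53 and 95. PTPRC (CD45) had 2 and 1 fragments, the myeloid factor SPI1 had 0 and 1, and 11 and 10 of the 23 markers were at 0. The part of other cells in the ALOX5 ratio was not tested. Among the 11 tested markers 2 were called higher and 0 lower, where 5.75% of all genes tested were called higher. These were ITGB2, an integrin chain, with a ratio of 2.41 (2.08 to 2.80), and CD14, with 7 and 38 fragments (2.79 to 16.8). At least 10 fragments in either library were found for 9 markers, of which CD68, ITGB2 and CSF1R had the highest CPM, CSF1R with a ratio of 0.401 (0.300 to 0.530). All 9 markers of renal epithelium and carcinoma were measured, among them PAX8, a kidney lineage factor, at 251 and 168 CPM and KRT8, a keratin, at 766 and 640 CPM.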

How the data were processed

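Total RNA of 2 libraries was compared, 1 per line, each grouped by its title in the labels. For each gene the authors deposited a raw count of reads and an RPKM, 1 table per library, per the file headers. The submitters' processing notes name TopHat2 2.0.6, Bowtie, HTSeq and hg19. Settings, annotation and the use of strand were not given in the sources used here. Every deposited count was even, and counts were divided by 2 to give fragments. Of 23398 rows, 23 Y rows of genes also listed on X were dropped. Scaling by TMM in edgeR 4.0.16 under R 4.3.3 used the 16894 genes with 10 or more reads in all. Ratios were given exact conditional (Clopper-Pearson) 95% intervals with scipy 1.17.1, and log2 ratios used 0.5 added fragments. With 1 library per group there is no replicate error and no p-value. The rule was run on simulated counts that held counting error only, so that check cannot speak to variation between cultures. The 10 genes, the lists and the rules were chosen with earlier results of these data known. Named genes were all 10, their nearest tested neighbours, SETD2, and the called and most abundant genes of each role. RASSF4, LTB4R2, CYSLTR1, LTC4S, PTGER2, PTGDR2, SLCO2A1, ABCC4 and COTL1 were added after their values were seen. So were the named leukocyte and renal markers other than CD68, ITGB2 and CSF1R. Alternatives were other scalings (total count, upper quartile and DESeq2 1.42.0 size factors), undivided counts, other minimums, levels, folds and added fragments, the RPKM ratio, and ratios relative to the 50 nearest genes.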

Additional observations from a re-analysis of the deposited data

How the results depend on the processing

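ALOX5 was called higher, and PTGES and ALOX5AP lower, under all 9 alternatives to the scaling and the call. HPGD was called under 8 of them and lost with a 99% interval, which left 2 lower genes, and PTGS2 joined as the fourth only where the 2-fold ratio was taken without an interval. With the interval beyond 1.5-fold, 1756 of all genes tested were higher and 1550 lower, and 15 of the other eicosanoid genes were lower. With the ratio beyond 2-fold and no interval, 2278 of all genes were higher and 1316 lower, and 13 of the other eicosanoid genes were higher and 10 lower. Of the other eicosanoid genes, LTB4R and PLA2G10 were lost with the 99% interval and FADS2 under total count and upper quartile scaling, where ANXA1 joined the higher genes, and undivided counts added CYSLTR1, PTGDR2 and CYP2C8 as higher and SLCO2A1 as lower. The log2 ratio of ALOX5 ranged from 5.10 to 5.36 over its alternatives, that of PTGES from -3.64 to -3.30, that of ALOX5AP from -2.22 to -1.91 and that of HPGD from -1.56 to -1.48. PLA2G4A, which was not called, ranged from -0.21 to 0.16 and changed sign relative to its 50 nearest genes. Depth limits PLA2G4A and PTGS2, which had at most 47 fragments in a library, and the variation between cultures was not measured.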
